A study of Mus musculus with 4 samples.

Results

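Hepatocyte junction genes are 10 genes whose proteins join neighbouring liver cells: the gap junction genes Gjb1, Gjb2 and Gja1, the tight junction genes Cldn1, Cldn2, Cldn3, Ocln and Tjp1, and the adherens junction genes Cdh1 and Cdh2. They were taken from a fixed list of symbols, and each matched 1 of the 22298 Ensembl gene identifiers in the files. The RNA came from primary hepatocytes of wild-type male C57BL/6 mice, purchased at 8 weeks of age and kept for 6 weeks on a methionine- and choline-deficient diet, which produces steatohepatitis. Mice were given vehicle or tamoxifen on 5 consecutive days and the samples are labelled as day 5, with 2 libraries in each group. For this diet model the study describes an intraperitoneal dose of 100 mg/kg, and tamoxifen was dissolved in corn oil. Both groups carried the diet, so a healthy liver was not compared here. Tamoxifen is a selective modulator of the estrogen receptor. Whether the libraries of a group came from separate mice is not stated, so a p-value here reflects the scatter of these libraries alone, which may be technical.

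Hepatocytes are polarized cells that form bile canaliculi between them. Tight junctions, built from claudins and occludin on a scaffold of zonula occludens proteins, seal the canaliculus from the blood side. Adherens junctions hold the cells together through classical cadherins, whose tails bind catenins and the actin cytoskeleton. Gap junctions are channels of connexins, through which ions and small metabolites pass directly from cell to cell. The main connexins of mouse hepatocytes are connexin 32, encoded by Gjb1, and connexin 26, encoded by Gjb2. Connexin 43, encoded by Gja1, is found in the liver mostly outside the hepatocytes.

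Levels are in FPKM, the fragments of a gene divided by its transcript length and by the mapped fragments of the library, and read counts were not used here. The spacing of the lowest values corresponded to about 16600000 to 20700000 mapped fragments per library. Comparisons were made on log2(FPKM + 1) with limma over the 11633 genes that reached 1 FPKM in 2 or more libraries, and fold changes on that scale understate the changes of low genes. A gene was called at an adjusted p under 0.05. Hepatocyte markers were plainly present, with Alb between 26382 and 50399 FPKM. Markers of other cells were present too and were lower after tamoxifen. The 10 Kupffer cell and macrophage markers summed to 987 and 1907 FPKM in vehicle 1 and 2 and to 99.2 and 180 FPKM in tamoxifen 1 and 2. Vehicle 2 stood apart in pancreatic acinar markers, which summed to 1079 FPKM there and to 8.08 to 45.5 FPKM in the other 3 libraries. The 100 most abundant genes took 46.1% to 53.8% of all FPKM in vehicle and 62.6% to 65.0% in tamoxifen. Of all genes tested, 46.7% were called lower and 4.31% were called higher, with a median log2 fold change of -0.60. The split moved with the scaling: 91.6% of calls were lower on FPKM as deposited, 53.9% once libraries were rescaled by median ratios, 50.5% when quantile normalized and 98.9% after scaling to hepatocyte markers.

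All 10 junction genes passed the filter on low values. Gja1, Tjp1 and Cdh1 fell after tamoxifen, and the other 7 were not called on FPKM as deposited. Thus 3 of 10 were called lower, against 46.7% of all genes tested, and 0 of 10 were called higher in limma, against 4.31% (1 higher at an unadjusted p under 0.05). The share over all genes depended on single libraries: without tamoxifen 1, 2 of 10 junction genes and 26% of all genes were called lower, without tamoxifen 2, 2 of 10 and 22.0%, and without vehicle 2, 3 of 10 and 30.5%. The vehicle and tamoxifen libraries did not overlap for 4 of the 10: 3 were lower, where 71.9% of all genes tested were, and 1 was higher, where 9.48% were. The median log2 fold change of the 10 genes was -0.13, beside -0.60 for all genes tested. With median ratios these medians were 0.62 and 0.06, with quantile normalization they were 0.37 and 0.09, and after scaling to hepatocyte markers they were -1.09 and -1.46. In each of these 4 scalings the junction genes had the higher median. Because rescaling moves junction genes and other genes of a library together, the 4 comparisons are not independent. The 10 genes were chosen with earlier results of these data known, and 60 other junction genes had a median of -0.65 on FPKM as deposited.

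**Figure D1:**
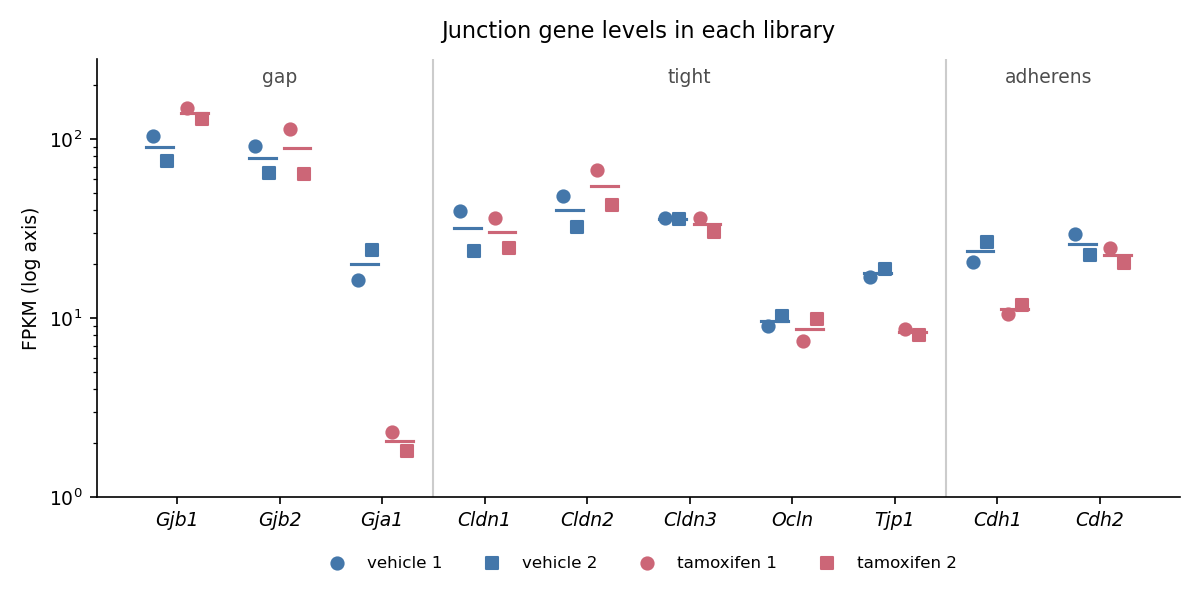
FPKM of each junction gene (log axis) in vehicle 1 and 2 (blue) and tamoxifen 1 and 2 (red), with a bar at each group mean. Gja1 sits at 16.2 and 23.9 FPKM in vehicle and at 2.31 and 1.81 FPKM in tamoxifen, and Gjb1 is the highest of the 10 in every library.

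Gja1 changed the most. Connexin 43 is the most widely expressed connexin of the body, and its gene spans bases 56377330 to 56402513 of chromosome 10 (here and for the genes that follow, GENCODE M21 coordinates on GRCm38, a build that need not be that of the authors). Its level was 16.2 FPKM in vehicle 1 and 23.9 FPKM in vehicle 2, against 2.31 and 1.81 FPKM in tamoxifen 1 and 2. The lowest vehicle library was far above the highest tamoxifen library. The group means were 20.04 ± 5.41 and 2.06 ± 0.354 FPKM (SD, n = 2 libraries each), which is 9.73-fold lower on the linear scale. The log2 fold change was -2.76 (standard error 0.26, limma adjusted p = 0.000596). Gja1 was called lower in 12 of 12 alternatives, with log2 fold changes from -3.58 to -2.04. About 117 and 160 fragments lay behind the tamoxifen values, reckoned on the longest annotated transcript. In bulk RNA, fewer cells of a type and less RNA per cell cannot be told apart. Markers of the cells that carry connexin 43 in liver were lower too, where 46.7% of all genes tested were called lower (median log2 fold change -0.60). Called lower were 10 of 10 Kupffer cell and macrophage markers, 10 of 10 endothelial markers and 10 of 10 stellate cell and fibroblast markers. The medians of these lists were -3.09, -1.76 and -3.31. Of these markers, 2 endothelial and 7 stellate cell ones passed the filter only through the vehicle libraries. The summed levels of all 3 lists were higher in library 2 of both groups. Gja1 was higher in vehicle 2 and lower in tamoxifen 2. The markers Kdr, Cd34, Lum, Col1a2 and Acta2 had that same order, and most others were higher in library 2 of both groups. The part of these cells in the Gja1 result was not tested.

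Gjb1, the main hepatocyte connexin, lies on chromosome X from 101376378 to 101385629. It was at 104 and 75.8 FPKM in vehicle 1 and 2 and at 148 and 130 FPKM in tamoxifen 1 and 2. Both tamoxifen libraries were above both vehicle libraries. The means were 89.9 ± 20.1 and 139 ± 12.9 FPKM (SD, n = 2 libraries each), and the log2 fold change was 0.64 (standard error 0.23, limma adjusted p = 0.0525, 95% interval 0.09 to 1.18). The difference thus missed the threshold. It was called in 4 of 12 alternatives. Among these it passed without vehicle 1 (log2 fold change 0.87, limma adjusted p = 0.0279), with a pseudocount of 0.1 (limma adjusted p = 0.0477) and after rescaling by median ratios (log2 fold change 1.43, limma adjusted p = 0.00978). It missed without vehicle 2 (0.41, limma adjusted p = 0.189), without tamoxifen 1 (0.54, limma adjusted p = 0.231), without tamoxifen 2 (0.73, limma adjusted p = 0.134) and with quantile normalization (0.83, limma adjusted p = 0.0594). After scaling to hepatocyte markers its direction turned, at -0.38 (limma adjusted p = 0.315). Hepatocyte markers themselves had a median log2 fold change of 0.94. Of these, 6 of 10 were called higher and 0 lower, beside 4.31% and 46.7% of all genes tested.

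Gjb2 encodes connexin 26, which in mouse liver is enriched in the periportal hepatocytes. It lies on chromosome 14 from 57098600 to 57104702. Its level was 91.8 and 64.8 FPKM in vehicle 1 and 2 and 114 and 64.2 FPKM in tamoxifen 1 and 2. The first library of each group was the higher one, and the groups overlapped. The log2 fold change was 0.15 (limma adjusted p = 0.702), with a 95% interval from -0.58 to 0.88 that leaves room for a change in either direction. It was called only after scaling to hepatocyte markers, where it was lower, at -0.87 (limma adjusted p = 0.0275).

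The makeup of the connexin transcripts can be read within each library, independent of its scaling. Gja1 made up 7.64% and 14.5% of the summed FPKM of Gjb1, Gjb2 and Gja1 in vehicle 1 and 2, and 0.872% and 0.924% in tamoxifen 1 and 2. Gjb1 made up 49.1% and 46.1% in vehicle and 55.9% and 66.3% in tamoxifen. Gjb2 made up 43.3% and 39.4% in vehicle and 43.2% and 32.7% in tamoxifen. Gja1 thus went from a minor share of these 3 connexins to a trace, while Gjb1 took the largest share in every library. Of 20 other connexin and pannexin genes listed, only Gja4 and Panx1 passed the filter, and both were called lower. Gja4, the endothelial connexin 37, was at 5.80 and 15.8 FPKM in vehicle and at 3.64 and 3.55 FPKM in tamoxifen. Panx1, which forms channels that release ATP, was at 1.05 and 5.35 FPKM in vehicle and at 0.16 and 0.14 FPKM in tamoxifen. It passed the filter only through the vehicle libraries, so its count among the lower genes followed in part from the filter. Of the other 18, 10 were listed at 0 in every library.

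The bases upstream of the start sites are shown for the gap junction gene that fell, Gja1, for the scaffold gene that fell with it, Tjp1, and for Gjb1, whose libraries lay higher after tamoxifen. They are RefSeq sequences on GRCm38.p6, each the 250 bases before an annotated start, read 5′ to 3′ on the strand of the gene. Capitals mark matches, on either strand, to 4 motifs: AP-1 (TGANTCA), the Snail E-box (CAGGTG), the GC box (GGGCGG) and the TATA box (TATAAA). Gjb1 has 4 annotated starts, and the window shown is the one of them whose following bases were found in a GENCODE transcript of the gene. The windows of Gjb1 and Tjp1 lie inside the GENCODE spans of these genes. Another Gjb1 window, not shown, ends at base 101376375, just before the span that begins at 101376378. Which starts these cells use was not measured. Gja1 and Gjb1 lie on the plus strand and Tjp1 on the minus strand.
Gja1, chr10:56377050-56377299: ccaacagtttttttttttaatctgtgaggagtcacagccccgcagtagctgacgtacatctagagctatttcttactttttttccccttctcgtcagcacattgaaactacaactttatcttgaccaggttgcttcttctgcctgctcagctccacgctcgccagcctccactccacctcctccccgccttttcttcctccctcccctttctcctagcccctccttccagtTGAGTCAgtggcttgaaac
Gjb1, chrX:101383482-101383731: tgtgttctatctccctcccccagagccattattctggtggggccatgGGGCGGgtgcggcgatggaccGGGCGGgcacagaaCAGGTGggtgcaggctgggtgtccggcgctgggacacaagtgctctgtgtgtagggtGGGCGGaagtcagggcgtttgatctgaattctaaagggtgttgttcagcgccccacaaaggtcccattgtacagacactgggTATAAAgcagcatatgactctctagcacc
Tjp1, chr7:65371245-65371494: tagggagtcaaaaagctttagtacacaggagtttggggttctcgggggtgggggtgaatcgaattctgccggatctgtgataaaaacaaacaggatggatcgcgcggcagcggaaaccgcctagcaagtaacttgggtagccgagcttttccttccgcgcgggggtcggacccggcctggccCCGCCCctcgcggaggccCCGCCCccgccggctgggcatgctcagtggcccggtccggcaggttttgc
The Gja1 window held an AP-1 match 19 to 13 bases before the RefSeq start, and no match to the other 3 motifs. That start lies 30 bases before the first GENCODE start of Gja1, and the bases after it were not found in a GENCODE transcript, unlike those of the other windows shown, so the distance depends on the annotation. The Gjb1 window held 3 GC boxes, a Snail E-box and a TATA box 29 to 24 bases before the start, and the Tjp1 window held 2 GC boxes on the opposite strand. Of 32841 promoter windows of the same length, 6.75% held an AP-1 match, 17.2% a Snail E-box, 32.7% a GC box and 12.4% a TATA box. Windows were found for 8 of the 10 genes, 12 windows in all, of which 1 held an AP-1 match, 3 a Snail E-box and 7 a GC box. A match describes letters and is not a measured site.

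Among the tight junction genes, Tjp1 was the only member called, and it fell. Tjp1 encodes ZO-1, the scaffold that ties claudins and occludin to actin, and lies on chromosome 7 from 65296165 to 65527781. It was at 17.1 and 18.7 FPKM in vehicle 1 and 2 and at 8.69 and 8.08 FPKM in tamoxifen 1 and 2. The libraries within each group lay close together and the groups did not overlap. The means were 17.9 ± 1.19 and 8.38 ± 0.431 FPKM (SD, n = 2 libraries each), 2.13-fold lower on the linear scale. The log2 fold change was -1.01 (standard error 0.20, limma adjusted p = 0.00634). The call was lost with median ratios (-0.27, limma adjusted p = 0.258), with quantile normalization (-0.36, limma adjusted p = 0.172) and without tamoxifen 2 (-0.96, limma adjusted p = 0.0564). Relative to the median of all genes tested, its fold change was -0.40.

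The claudins and occludin did not pass the test on FPKM as deposited. Cldn1 encodes claudin-1, a sealing claudin, on chromosome 16 from 26356642 to 26371841. It was at 39.6 and 23.7 FPKM in vehicle 1 and 2 and at 36.1 and 24.7 FPKM in tamoxifen 1 and 2, so that the spread within each group exceeded the difference between them. Its log2 fold change was -0.04, with a 95% interval from -0.73 to 0.66 (limma adjusted p = 0.925). With median ratios the direction turned, at 0.73 (limma adjusted p = 0.131), and with scaling to hepatocyte markers Cldn1 was called lower, at -1.03 (limma adjusted p = 0.015). Cldn2 encodes claudin-2, which forms a pore for small cations and water, on chromosome X from 139800828 to 139811386. It was at 48.2 and 32.3 FPKM in vehicle 1 and 2 and at 67.2 and 42.8 FPKM in tamoxifen 1 and 2. The groups overlapped, since tamoxifen 2 lay below vehicle 1. Its log2 fold change was 0.43, with a 95% interval from -0.25 to 1.11 (limma adjusted p = 0.24), and after rescaling by median ratios it was called higher, at 1.21 (limma adjusted p = 0.0282), whereas with scaling to hepatocyte markers its direction turned, at -0.58 (limma adjusted p = 0.157).

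Cldn3 encodes claudin-3, a sealing claudin of hepatocytes and bile ducts, on chromosome 5 from 134986214 to 134987472. It was the steadiest of the 10 genes among the vehicle libraries. It was at 35.99 and 35.6 FPKM in vehicle 1 and 2 and at 36.4 and 30.4 FPKM in tamoxifen 1 and 2. Its log2 fold change was -0.10, with a 95% interval from -0.57 to 0.37 (limma adjusted p = 0.680). The direction depended on the scaling: it was called higher after rescaling by median ratios, at 0.67 (limma adjusted p = 0.0355), and lower after scaling to hepatocyte markers, at -1.11 (limma adjusted p = 0.00885). Ocln encodes occludin, a membrane protein of the same strands, on chromosome 13 from 100496507 to 100552718. It was at 9.07 and 10.2 FPKM in vehicle 1 and 2 and at 7.46 and 9.90 FPKM in tamoxifen 1 and 2. The groups overlapped, and the log2 fold change was -0.15, with a 95% interval from -0.68 to 0.38 (limma adjusted p = 0.601). With median ratios its direction turned, at 0.57 (limma adjusted p = 0.0815), and with scaling to hepatocyte markers it was called lower, at -1.08 (limma adjusted p = 0.0193).

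The adherens junction cadherins parted. Cdh1 encodes E-cadherin, which in mouse liver is found on periportal hepatocytes and bile ducts, and lies on chromosome 8 from 106603351 to 106670246. It was at 20.7 and 26.6 FPKM in vehicle 1 and 2 and at 10.6 and 11.8 FPKM in tamoxifen 1 and 2. Both vehicle libraries were above both tamoxifen libraries. The means were 23.6 ± 4.17 and 11.2 ± 0.877 FPKM (SD, n = 2 libraries each), 2.11-fold lower on the linear scale. The log2 fold change was -1.0 (standard error 0.22, limma adjusted p = 0.00847). The call was lost with median ratios (-0.25, limma adjusted p = 0.329), with quantile normalization (-0.41, limma adjusted p = 0.158) and without tamoxifen 1 (-0.93, limma adjusted p = 0.0605). Cholangiocyte markers were lower too: 6 of the 8 tested were called lower and 0 higher, beside 46.7% and 4.31% of all genes tested. Krt19 and Muc1 passed the filter only through the vehicle libraries. The median log2 fold change of the 8 was -1.41. The 10 listed summed to 230 and 576 FPKM in vehicle 1 and 2 and to 68.9 and 112 FPKM in tamoxifen 1 and 2. Most of this sum was Spp1 alone, at 192 and 509 FPKM in vehicle and at 46.35 and 87.04 FPKM in tamoxifen. The defining marker Krt19 was low in all 4 libraries, at 1.07 and 4.70 FPKM in vehicle and at 0.07 and 0.61 FPKM in tamoxifen. The part of bile duct cells in the fall of Cdh1 was not tested.

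Cdh2 encodes N-cadherin, the second classical cadherin of hepatocytes, on chromosome 18 from 16588877 to 16809246. It was at 29.4 and 22.4 FPKM in vehicle 1 and 2 and at 24.7 and 20.3 FPKM in tamoxifen 1 and 2. The groups overlapped. Its log2 fold change was -0.19, with a 95% interval from -0.72 to 0.34 (limma adjusted p = 0.497). It was positive after rescaling by median ratios (0.57, limma adjusted p = 0.109) and was called lower after scaling to hepatocyte markers (-1.18, limma adjusted p = 0.00670).

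**Figure D2:**
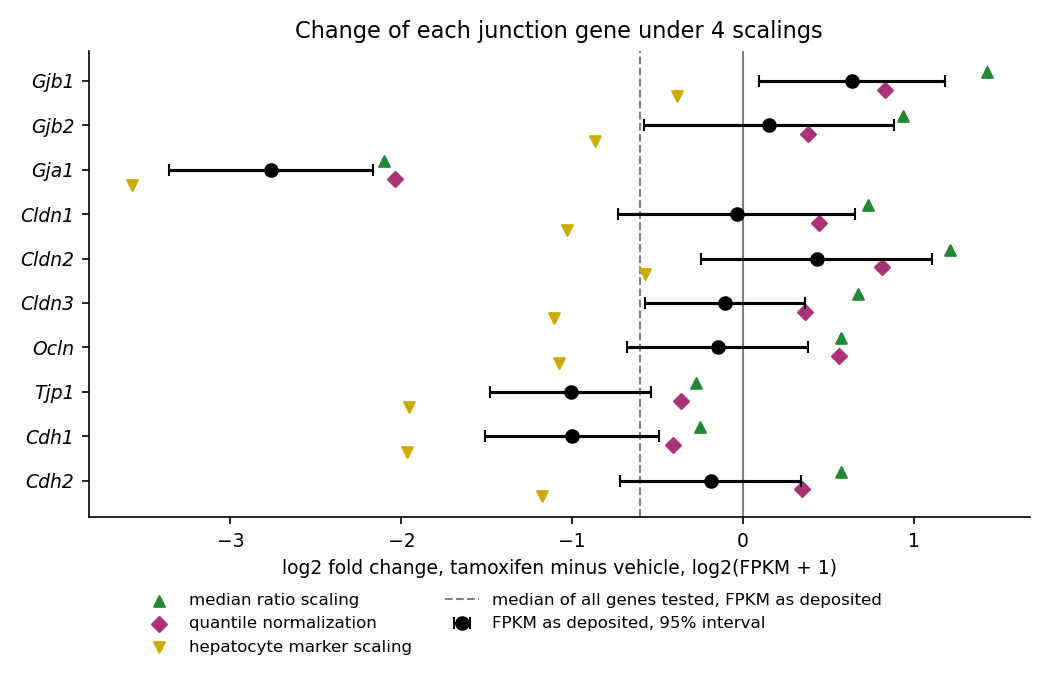
Log2 fold change of each junction gene, tamoxifen minus vehicle on log2(FPKM + 1), as deposited (black, with the 95% interval from limma) and after 3 other scalings (coloured). Gja1, Tjp1 and Cdh1 lie left of 0 under all 4 scalings, whereas the other junction genes lie on either side of 0 depending on the scaling.

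Because a ratio of a gene pair within a library does not depend on scaling, apart from the added pseudocount, 6 pairs were compared. With 2 libraries against 2 the exact permutation test cannot give a p below 0.333, so these values are a description. The largest shift was that of Gja1 to Gjb1. Its log2 ratio was -2.61 and -1.63 in vehicle 1 and 2 and -5.49 and -5.54 in tamoxifen 1 and 2 (difference -3.40, exact permutation p = 0.333, two-sided, adjusted p = 0.4 over the 6 pairs). The Ocln to Tjp1 ratio was -0.84 and -0.81 in vehicle and -0.20 and 0.26 in tamoxifen. Occludin transcripts thus came level with those of Tjp1 in the bulk RNA. The part of cells other than hepatocytes in this shift was not tested. The Cdh1 to Cdh2 ratio was -0.49 and 0.23 in vehicle and -1.15 and -0.73 in tamoxifen, a shift towards N-cadherin. Cdh1 made up 41.2% and 54.2% of the summed FPKM of both cadherins in vehicle and 30.0% and 36.9% in tamoxifen. The Cldn1 to Cldn2 ratio was -0.28 and -0.43 in vehicle and -0.88 and -0.77 in tamoxifen, and that of Gjb1 to Gjb2 was 0.18 and 0.22 in vehicle and 0.37 and 1.01 in tamoxifen. In these 5 pairs the groups did not overlap, but how often that holds for other gene pairs was not computed. For Cldn3 to Cldn1 they did, at -0.14 and 0.57 in vehicle and 0.01 and 0.29 in tamoxifen (exact permutation p = 1, two-sided).

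**Figure D3:**
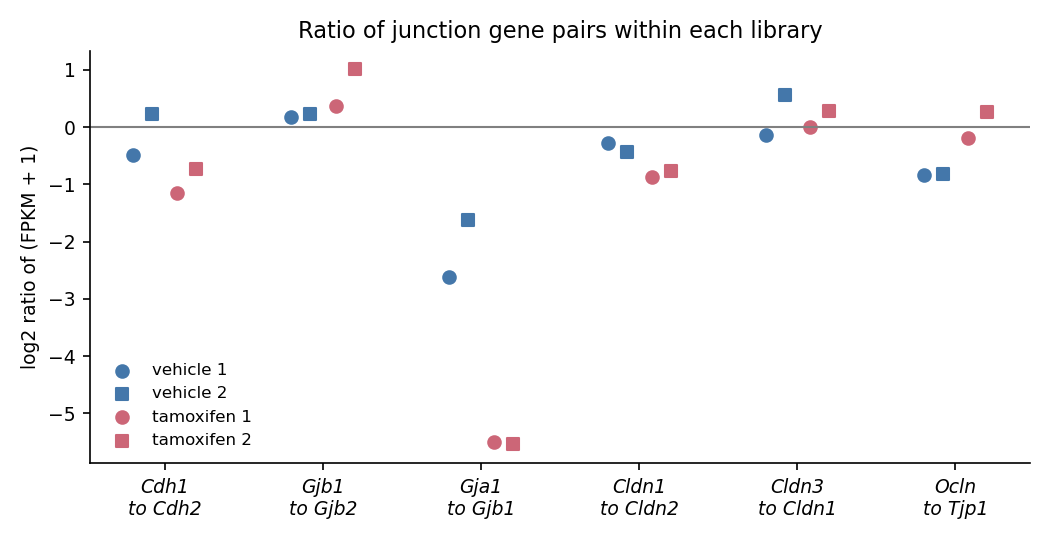
Log2 ratio of (FPKM + 1) of 6 pairs of junction genes within each library, vehicle in blue and tamoxifen in red. The Gja1 to Gjb1 ratio is -5.49 and -5.54 in the tamoxifen libraries and -2.61 and -1.63 in the vehicle libraries.

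FPKM is per length of transcript, so levels can be ordered between genes. In vehicle the order by mean was Gjb1, Gjb2, Cldn2, Cldn3, Cldn1, Cdh2, Cdh1, Gja1, Tjp1 and Ocln, from 89.9 down to 9.65 FPKM. Neighbours in this order overlapped between libraries except at 2 steps: Gjb2 lay above Cldn2, and Tjp1 lay above Ocln. In tamoxifen Gjb1, Gjb2, Cldn2, Cldn3, Cldn1, Cdh2 and Cdh1 kept their order. Gja1 went from rank 8 to rank 10, and Ocln from rank 10 to rank 8. There the libraries of Gjb1 lay above those of Gjb2, those of Cldn2 above those of Cldn3, those of Cdh2 above those of Cdh1, those of Cdh1 above those of Ocln and those of Tjp1 above those of Gja1. The summed level of the 10 genes was 412 and 334 FPKM in vehicle 1 and 2 and 456 and 344 FPKM in tamoxifen 1 and 2, and the groups overlapped.

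Of 117 other junction genes listed, 115 matched 1 identifier and 60 passed the filter. Of these 60, 30 were called lower, 2 higher and 28 were not called, at a median log2 fold change of -0.65, close to the -0.60 of all genes tested (leaving out tamoxifen 1 gave 19 lower and 1 higher; leaving out tamoxifen 2 gave 15 and 3). With median ratios 10 were lower and 10 higher, and with quantile normalization 8 were lower and 11 higher. The share called lower was thus near that of all genes. Of the 60, 6 passed the filter only through the vehicle libraries, and of the other 54, 25 were called lower.

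In the list of other adherens junction genes, 8 of 13 tested were called lower and 0 higher in limma, beside 46.7% and 4.31% of all genes tested. Cdh13 passed the filter only through the vehicle libraries, and of the other 12 genes 7 were called lower. Ctnnb1, beta-catenin, which binds the tails of E- and N-cadherin, was at 89.5 and 124 FPKM in vehicle 1 and 2 and at 43.6 and 35.8 FPKM in tamoxifen 1 and 2 (log2 fold change -1.40, limma adjusted p = 0.00346). Ctnna1, alpha-catenin, which links the complex to actin, fell by 0.96. Both lay at higher levels than the cadherins themselves. The largest falls of the list were those of Vcl, vinculin, which fell by 2.33, of Cdh5, the endothelial cadherin, which fell by 2.20, and of Cdh13, a cadherin without a cytoplasmic tail, which fell by 1.70 on the log2 scale. Among 31 tested tight junction membrane, scaffold and polarity genes, 14 were called lower and 0 higher in limma, a share near that of all genes. Jam3 and Pard3b passed the filter only through the vehicle libraries, and of the other 29 genes 13 were called lower. Jam2, an adhesion molecule of endothelial cells, fell by 1.69, Amotl1, of the angiomotin family, by 1.64 and Esam, also endothelial, by 1.62. Lsr, the tricellular junction protein angulin-1 and the most abundant of this list, was at 63.4 and 60.1 FPKM in vehicle and at 50.9 and 58.5 FPKM in tamoxifen (limma adjusted p = 0.477). F11r, junctional adhesion molecule A and the next in level, fell by 0.59 (limma adjusted p = 0.0443).

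Of 5 other claudins tested, 3 were called lower and 0 higher in limma, beside 46.7% and 4.31% of all genes tested. Log2 falls were those of Cldn4, an epithelial claudin (1.71), Cldn5, the endothelial claudin (1.53) and Cldn7, also epithelial (1.27). Cldn4 and Cldn7 passed the filter only through the vehicle libraries, and of the other 3 claudins 1 was called lower. Cldn12, the most abundant of them, was at 17.1 and 13.5 FPKM in vehicle and at 16.8 and 15.9 FPKM in tamoxifen (limma adjusted p = 0.704). The desmosome list held both of the calls upwards. Dsg1c, a desmoglein, rose by 2.10 (standard error 0.26, limma adjusted p = 0.00122), from 6.03 and 3.71 FPKM in vehicle to 25.9 and 21.5 FPKM in tamoxifen. Dsc2, a desmocollin, rose by 1.02 (standard error 0.22, limma adjusted p = 0.00816), from 8.45 and 8.72 FPKM to 20.9 and 16.1 FPKM. Dsg1c has near-identical neighbouring copies, among which the counting could split reads, so its level is uncertain. Dsg1a and Dsg1b were listed at 0.22 FPKM or less in every library, and how reads were divided was not tested. Ppl, periplakin, fell by 1.3, Jup, plakoglobin, by 0.91 and Pkp4, a plakophilin relative, by 0.82. Perp and Dsg2, the most abundant of the list, were not called. Of 9 desmosome genes tested, 3 were thus lower, 2 higher and 4 not called, at a median of -0.26. Among all genes tested 46.7% were called lower and 4.31% higher.

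**Figure D4:**
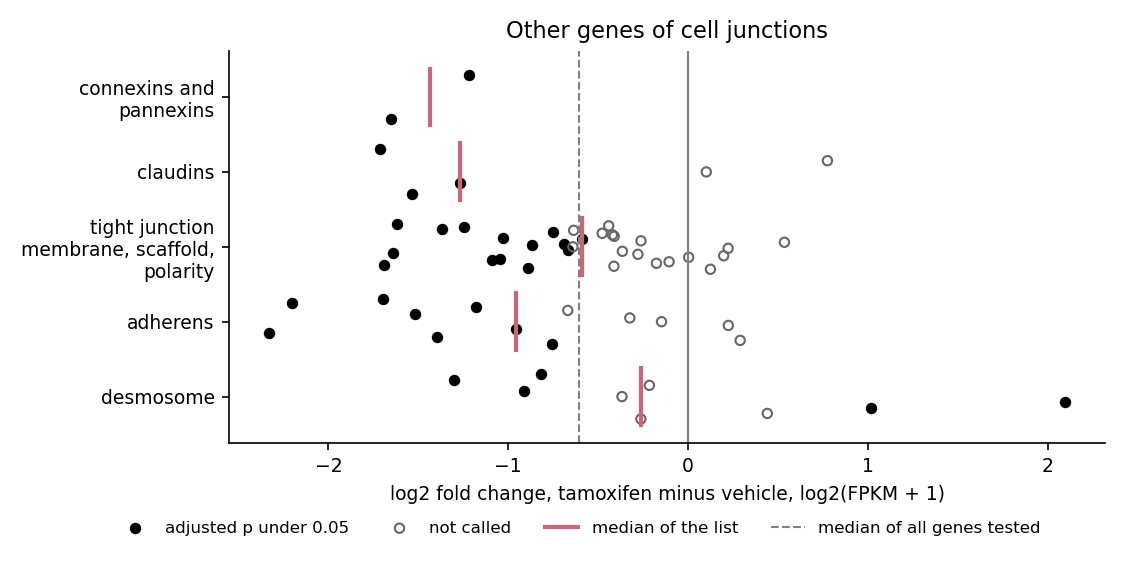
Log2 fold change of 60 other junction genes that passed the filter, by list (rows), tamoxifen minus vehicle on log2(FPKM + 1). Filled points were called at an adjusted p under 0.05 and red bars are list medians, from -1.43 for connexins and pannexins to -0.26 for desmosomes. The dashed line at -0.60 is the median of all genes tested.

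Transcripts of the Snail, Zeb and Twist families, which repress Cdh1 in other settings, were read beside it. Of 7 listed, 4 passed the filter, and 3 of these were called lower and 0 higher in limma (median log2 fold change -1.08), beside 46.7% and 4.31% of all genes tested. Snai1 passed the filter only through the vehicle libraries, and of the other 3 genes 2 were called lower. Zeb2, also high in macrophages and stellate cells, was at 24.1 and 44.2 FPKM in vehicle 1 and 2 and at 2.51 and 2.82 FPKM in tamoxifen 1 and 2 (log2 fold change -3.20, limma adjusted p = 0.000612). Snai1 fell by 1.20 and Zeb1 by 0.96. Snai2 was at 2.60 and 1.63 FPKM in vehicle and at 2.46 and 3.38 FPKM in tamoxifen (limma adjusted p = 0.308).

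**Figure D5:**
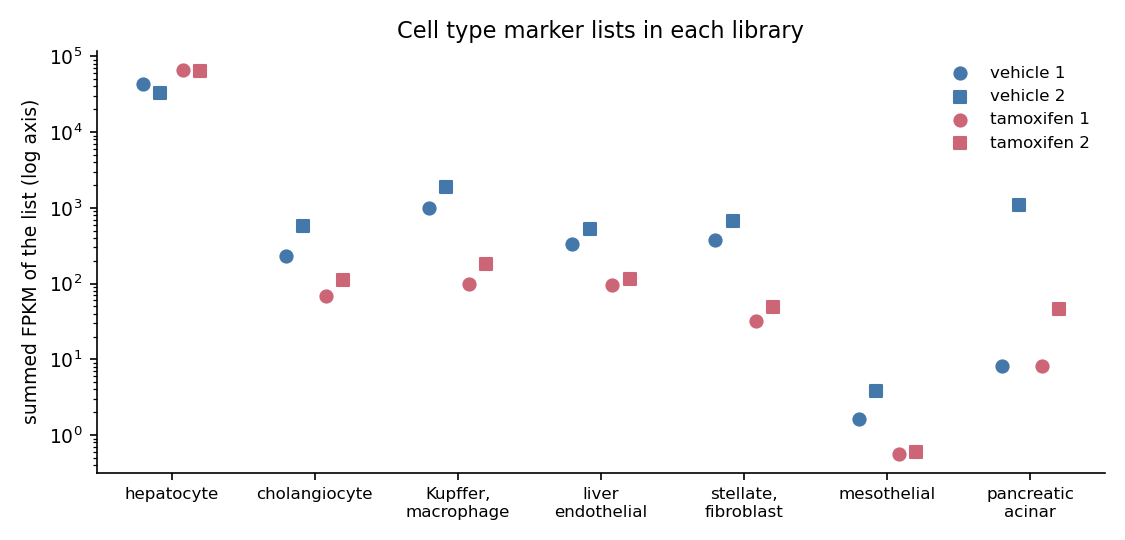
Summed FPKM (log axis) of marker lists of the hepatocyte and of other cells in each library, vehicle in blue and tamoxifen in red. Hepatocyte markers are higher in both tamoxifen libraries, macrophage, endothelial, stellate and cholangiocyte markers are lower, and acinar markers stand out in vehicle 2 at 1079 FPKM. The cholangiocyte sum is mostly Spp1.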

How the data were processed

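Messenger RNA of primary hepatocytes was sequenced in 2 vehicle and 2 tamoxifen libraries on an Illumina instrument. The authors deposited 1 table of FPKM per library, rounded to 2 decimals. The submitters' processing notes name, without roles, StringTie 1.3.1, RSEM, HISAT2, Bowtie2 and fastp 0.18.0. No build is given in the sources used here. Symbols (22255 of 22298 identifiers matched) and gene coordinates came from GENCODE M21. The spacing of low FPKM values of genes with a single annotated transcript gave the approximate depth.

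FPKM were analysed as log2(FPKM + 1) in R 4.3.3 with limma 3.58.1 (trend, two-sided, Benjamini-Hochberg over 11633 genes tested; filter of 1 FPKM in 2 libraries). The method was checked on simulated tables. Members and lists were chosen with earlier results of these data known. In each list the 3 largest called changes per direction and the 2 highest means were to be named; marker and zonation lists are mostly given as sums and counts. The symbol Pals1 was read as Mpp5; 1 listed gene had no match and 1 matched more than 1 identifier. Alternatives were other scalings, filters and pseudocounts, each library left out, a replicate block and limma without trend. Subtracting the median of all genes was added after seeing the data. Plots used matplotlib 3.10.9 (Python 3.11.15).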

Additional observations from a re-analysis of the deposited data

How the results depend on the processing

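With 2 libraries per group, calls near the threshold and directions near 0 depended on the processing; the causes were not tested. Gja1 was called lower in all 12 alternatives run with a test. After rescaling by median ratios, 1 junction gene was called lower and 3 higher (Gjb1, Cldn2 and Cldn3). Directions turned there for Cldn1 (0.73), Cldn3 (0.67), Ocln (0.57) and Cdh2 (0.57), of which only Cldn3 was called; 10 other junction genes were lower and 10 higher, and of all genes 2258 were lower and 1929 higher. After quantile normalization 1 junction gene was called lower, as were 8 other junction genes (11 higher) and 1595 of all genes (1563 higher). Directions turned, uncalled, for Cldn1 (0.44), Cldn3 (0.36), Ocln (0.56) and Cdh2 (0.35). After scaling to hepatocyte markers 8 junction genes were called lower, all but Gjb1 and Cldn2. Directions turned for Gjb2 (-0.87, called) and for Gjb1 (-0.38) and Cldn2 (-0.58), which were not called; 48 other junction genes were lower and 1 higher, and 9810 of all genes were lower and 105 higher. With the median of all genes subtracted, Cldn1 was at 0.57, Cldn3 at 0.50, Ocln at 0.46 and Cdh2 at 0.41. A pseudocount of 0.1 gave 1 junction gene higher. A mean of at least 5 FPKM left 19 other junction genes lower and 3182 of all genes lower, by testing fewer genes. With each library left out in turn, 0 to 1 junction genes were higher, 15 to 28 other junction genes lower and 1 to 3 higher, and 2555 to 5531 of all genes lower and 263 to 500 higher (3545 and 270 without vehicle 2, 3030 and 279 without tamoxifen 1, 2555 and 263 without tamoxifen 2). Log2 fold changes then ran from -0.26 to 0.56 for Gjb2, -0.40 to 0.32 for Cldn1, -0.23 to 0.023 for Cldn3 and -0.33 to 0.035 for Ocln. The labels give both groups replicate numbers 1 and 2 without saying that they pair the libraries. Across genes the deviations of same-numbered libraries had r = 0.28, and a replicate block gave 1 junction gene higher, Gjb1 (adjusted p = 0.0318 from limma), with 5863 of all genes lower and 573 higher.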

Other observations

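The order of the libraries within a group was alike for many junction genes. Gjb1, Gjb2, Cldn1, Cldn2, Cldn3 and Cdh2 were higher in library 1 than in library 2 of both groups, 6 of the 10 genes. The difference on the log2 scale, library 2 minus library 1, was -0.72 in vehicle and -0.53 in tamoxifen for Cldn1 and -0.57 and -0.64 for Cldn2. Ocln and Cdh1 were higher in library 2 of both groups. Of all genes tested, 28.8% were higher in vehicle 1 than in vehicle 2 and 57.5% were higher in tamoxifen 1 than in tamoxifen 2. The share of all genes higher in library 1 of both groups was not computed. The libraries are not known to be paired, and no cause was tested.

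Cdh1 and Gjb2 are both periportal in mouse liver, and other zonated genes were read beside them. Of 10 periportal genes, 4 were called higher and 0 lower in limma (median log2 fold change 0.64), beside 4.31% and 46.7% of all genes tested. Log2 rises were largest for Sds, a serine dehydratase (2.06), Hal, a histidine lyase (1.40) and Pck1, of gluconeogenesis (1.27). Of the 6 not called, Cyp2f2 (-0.80), Ctsc (-0.62) and Aldh1b1 (-0.37) had negative log2 fold changes and the others positive ones. Of 10 pericentral genes, 5 were called lower and 0 higher in limma (median -0.82), a share near the 46.7% of all genes called lower, led by Rhbg, an ammonium transporter, which fell by 2.08, Glul, glutamine synthetase, by 1.55 and Slc1a2, a glutamate transporter, which fell by 1.26. Axin2 and Lgr5 passed the filter only through the vehicle libraries, and of the other 8 pericentral genes 4 were called lower. Both Cdh1, at -1.0, and Gjb2, at 0.15 and not called, lay below the periportal median.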
